A study of Mus musculus with 8 samples.

Results

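The killer lectin-like receptors are C-type lectin-like membrane proteins that NK cells and some T cells use to read the surface of other cells. The 10 genes described here were chosen by symbol and not by a measured value: the Ly49 genes Klra3, Klra4, Klra7 and Klra8, the CD94/NKG2 group Klrd1, Klrc1 and Klrk1, and Klrb1c, Klrg1 and Klre1. They were all listed among the 24787 genes of the count tables, beside 16 other killer lectin-like receptor genes. Their transcripts were counted in single cells from subcutaneous MC38 tumors, a C57BL/6 mouse colon carcinoma line, taken 24 hours after treatment of 8-week-old female C57BL/6J mice (strain, age and sex as the methods give them). The mice had received saline (3 tumors, 1 per mouse), free R848 (3 tumors) or medium R848-BPDs (2 tumors). R848 (resiquimod) is a small-molecule agonist of Toll-like receptors 7 and 8, and a bottlebrush prodrug (BPD) carries it on a polymer through cleavable linkers, here the linker called medium. All groups carried the same tumor line and no engineered allele is named for these mice. CD45+ and CD45− cells were mixed 9:1 before loading onto Seq-Well arrays, in which a unique molecular identifier (UMI) marks each captured transcript, so shares of cells follow that mix and not the tumor.

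The receptors pair signals that hold an NK cell back with signals that release it. Ly49C (Klra3) and Ly49G (Klra7) bind MHC class I and inhibit through cytoplasmic motifs that recruit phosphatases, whereas Ly49D (Klra4) and Ly49H (Klra8) lack these motifs and activate through the adaptor DAP12, encoded by Tyrobp. CD94 (Klrd1) pairs with NKG2A (Klrc1) to form an inhibitory receptor for Qa-1, the product of H2-T23, and NKG2D (Klrk1) binds stress-induced ligands of the Raet1, H60 and Ulbp families and signals through DAP10 (Hcst) or DAP12. NK1.1 (Klrb1c) is the classic NK marker of C57BL/6 mice, KLRG1 (Klrg1) is an inhibitory receptor for cadherins, and Klre1 pairs with Klri1 or Klri2. Ly49 genes are known to be switched on in different combinations in different NK cells of 1 animal.

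The tumors held 5867590 to 12422614 UMIs each, and the median kept cell of a tumor held 3247 to 6928. Of 10791 barcodes, 9886 cells were kept, 67 of which (0.678%) were scored as doublets and retained. 23 barcodes appeared in more than 1 library, 9 of them in all 8, and accounted for 59 kept cells (0.597%); leaving these cells out changed no call named here. Clusters were drawn without any receptor, adaptor or ligand gene, and were named from markers. This gave 985 NK-like cells (44 to 210 per tumor), 636 T-like (53 to 132), 685 dendritic cell (DC)-like (27 to 164), 5314 monocyte/macrophage-like (485 to 947) and 1641 MC38-like cells (92 to 455). A Cd3d, Cd3e or Cd3g UMI was found in 2.27 to 11.3% of NK-like and 77.4 to 94.1% of T-like cells of a tumor. An Ncr1 UMI, the transcript of the NK receptor NKp46, was found in 47.7 to 88.0% of NK-like and 2.94 to 17.6% of T-like cells. Levels are given as CPM, a gene's UMIs per 1000000 of the summed UMIs of a class in a tumor.

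All 10 genes lie on mouse chromosome 6 (GRCm38, GENCODE vM21). Klrg1 is at 122270596 to 122282882 and Klrb1c at 128778485 to 128789215, both on the minus strand. Klre1 (129577905 to 129585827) and Klrd1 (129591782 to 129598775) are neighbors on the plus strand. Klrk1 (129610323 to 129623864), Klrc1 (129666015 to 129678973), Klra4 (130043731 to 130067271), Klra8 (130115226 to 130129898), Klra7 (130218605 to 130233322) and Klra3 (130323289 to 130337574) follow on the minus strand. The Ly49 genes are near copies of one another, and Seq-Well reads come from the 3′ ends of transcripts. Over the last 300 bases of their transcripts, Klra3 was 98.7% identical to Klra9, Klra8 was 87.3% identical to Klra6 and 85.7% to Klra5, and Klra4 was 86.0% identical to Klra1. Among the members, identity was 82.7% for Klra3 with Klra8, 75.7% for Klra4 with Klra7, 66.0% for Klra3 with Klra4, 65.0% for Klra7 with Klra8, 61.7% for Klra4 with Klra8 and lowest for Klra3 with Klra7. Counts of Klra3 in particular could hold Klra9 reads, and the rule by which such reads were assigned is not given in the sources used here.

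The sequences just before the start sites of 4 members are shown for genes described below. Klra4 and Klra8 shared cells more often than expected if detection were independent, and Klrc1 shared cells with either less often. Klrk1 was found in several cell classes. No result was tested against these sequences. They are the 250 bases before the start in RefSeq for GRCm38.p6, each on the minus strand, 5′ to 3′, and RefSeq windows were matched for 8 of the 10 members. In the Klra4 window, chr6:130067272-130067521, and the Klra8 window, chr6:130129899-130130148, capitals mark the 38 bases of each that differ or have no partner in the alignment.
Klra4: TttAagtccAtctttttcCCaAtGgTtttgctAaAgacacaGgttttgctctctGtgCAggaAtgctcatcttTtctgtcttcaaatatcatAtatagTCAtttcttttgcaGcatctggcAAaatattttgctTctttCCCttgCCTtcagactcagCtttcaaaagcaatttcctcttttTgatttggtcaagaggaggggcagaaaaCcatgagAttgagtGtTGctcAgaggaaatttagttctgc
Klra8: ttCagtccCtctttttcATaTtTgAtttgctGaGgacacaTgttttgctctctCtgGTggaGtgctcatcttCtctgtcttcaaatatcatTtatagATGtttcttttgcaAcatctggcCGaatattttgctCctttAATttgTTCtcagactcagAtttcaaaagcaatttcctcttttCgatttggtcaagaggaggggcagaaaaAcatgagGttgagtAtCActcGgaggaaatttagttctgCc
The Klra4 and Klra8 windows were 84.8% identical, against 77.6% for Klra4 with Klra7 and 55.6% for Klra4 with Klrc1. Klra8 and Klra7 each have another start site in the RefSeq table, and those windows were 65.2% and 51.2% identical to that of Klra4. In the Klrk1 window, chr6:129623865-129624114, and the Klrc1 window, chr6:129678974-129679223, capitals mark the letters TGTGGT, a core bound by RUNX factors, or their reverse complement.
Klrk1: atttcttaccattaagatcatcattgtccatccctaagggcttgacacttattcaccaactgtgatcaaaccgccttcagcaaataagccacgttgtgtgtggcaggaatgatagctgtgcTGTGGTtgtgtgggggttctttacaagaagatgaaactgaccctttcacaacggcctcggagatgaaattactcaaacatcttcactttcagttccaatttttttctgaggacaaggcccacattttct
Klrc1: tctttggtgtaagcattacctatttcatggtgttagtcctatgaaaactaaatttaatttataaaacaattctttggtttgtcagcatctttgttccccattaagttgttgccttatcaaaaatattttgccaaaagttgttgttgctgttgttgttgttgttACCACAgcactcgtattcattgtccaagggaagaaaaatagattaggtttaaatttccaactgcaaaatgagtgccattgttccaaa
TGTGGT, searched on both strands, began 129 bases before the start in Klrk1, 87 bases before it in Klrc1, 89 in Klrb1c and 229 in Klre1, and was in none of the searched windows of the 4 Ly49 members. Of 32851 mouse windows of the same length, 14.0% held it. The letters TCACACC (a T-box core, in 3.33% of all windows) and CCGGAA (an ETS core, 12.03%) were in no member window, and TTCNNNGAA (a STAT site, 7.02%) was in 1 Klra7 window. These matches describe letters and not binding.

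The receptors were mostly NK transcripts, but Klrc1, Klra4 and Klrk1 had much of their UMIs elsewhere. NK-like cells were 10.3% of the named cells and held 92.4% of Klra8 UMIs, 90.2% of Klrg1, 84.1% of Klrb1c, 82.1% of Klre1, 77.3% of Klra7, 76.4% of Klra3 and 72.3% of Klrd1. For Klrc1 the NK-like share was 54.4%, with 40.5% of its UMIs in T-like cells. For Klra4 it was 54.2%, with 41.1% in MC38-like cells. For Klrk1 it was 46.2%, with 22.6% in monocyte/macrophage-like, 15.1% in T-like and 14.3% in DC-like cells. At full depth the median tumor had a UMI of Klrk1 in 83.9% of NK-like cells, of Klrd1 in 81.5% and of Klrc1 in 17.1%, whereas in monocyte/macrophage-like cells the share was 11.8% for Klrk1 and at most 0.7% for the other 9. The median cell held 5867 UMIs in the NK-like class and 5078.5 in the monocyte/macrophage-like class. After every cell was thinned to 1000 UMIs, the NK-like shares were 31.8% for Klrd1, 29.0% for Klrk1, 22.2% for Klra7, 15.7% for Klra8, 11.5% for Klra4 and 4.3% for Klrc1.

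**Figure D1:**
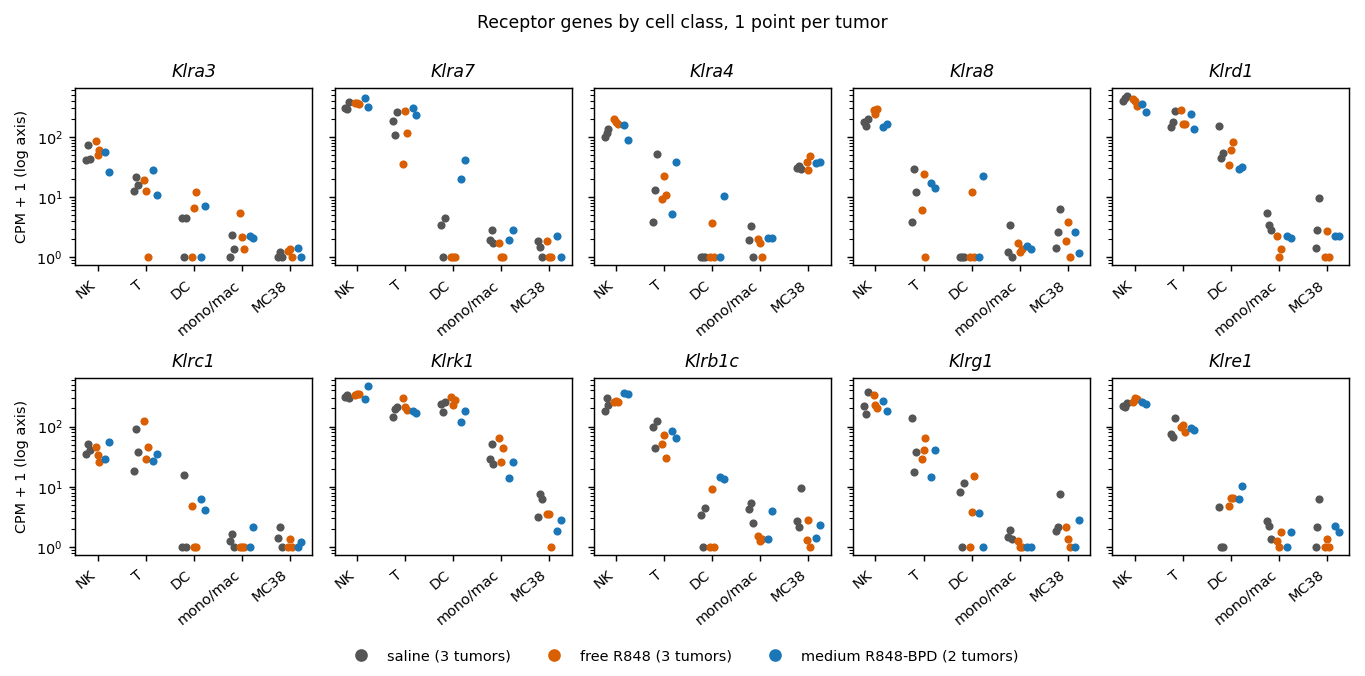
Level of each of the 10 receptor genes (CPM + 1, log axis) in 5 cell classes, with 1 point per tumor colored by treatment. The NK-like points are the highest for most genes, Klra4 in MC38-like sums sits at 27.3 to 46.4 CPM, and Klrk1 in DC-like cells sits at 119 to 311 CPM.

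A typical NK-like cell carried several receptors at once. At full depth it had UMIs of 4.96 of the 10 genes (median of the tumor means, range 4.04 to 5.82), and 94.3% of cells had 3 or more, against a mean of 2.22 genes in T-like cells. Of the 4 Ly49 genes alone, the median tumor had none detected in 21.4% of NK-like cells, 1 in 32.8%, 2 in 29.3% and 3 or more in 14.6%. Levels in the NK-like sums differed little between tumors for Klre1, with a coefficient of variation of 12.4%, and for Klra7 (14.0%), and most for Klra3 (34.9%), which had the second-fewest UMIs. After thinning to 1000 UMIs an NK-like cell had UMIs of 1.92 of the 10 genes, against 0.736 in T-like cells, 25.8% of NK-like cells had 3 or more, and 54.2% had no Ly49 gene detected. These counts of genes per cell move with depth, and doublets and UMIs of near-identical genes were not removed from them.

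Against T-like cells of the same tumors, 9 of the 10 members were higher in NK-like cells and 1 did not pass the test, where 14.4% of all 8459 genes tested were called higher and 33% were called in either direction. The median difference was +1.65 on the log2 scale over the members and -0.01 over all genes. The tests were edgeR's quasi-likelihood test with the tumor as a block and Benjamini-Hochberg adjustment over all genes, called at an adjusted p under 0.05. The activating Ly49 receptors differed most. Klra8 was at 144 to 291 CPM in NK-like and 0 to 28.8 CPM in T-like sums, with a log2 difference of +3.89 (SE 0.28, adjusted p = 3.56e-09). Klra4 was at 89.1 to 201 CPM against 2.9 to 51.3 CPM, a difference of +3.31 (SE 0.31, adjusted p = 1.25e-07). No tumor's T-like value reached any NK-like value for either gene. Restricting the classes to NK-like cells without a Cd3 UMI and T-like cells with one but without Ncr1 raised these differences to 5.53 and 6.17.

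The inhibitory Ly49 genes were also higher in NK-like cells. Klra7 was at 291 to 443 CPM in NK-like sums and 34.9 to 300 CPM in T-like sums, which overlap, with a difference of +1.07 (SE 0.22, adjusted p = 0.000715). Klra3 was at 25.5 to 83.7 CPM against 0 to 27.5 CPM, a difference of +1.83 (SE 0.24, adjusted p = 8.17e-06). In the CD94/NKG2 group, Klrd1 differed by +1.01 (SE 0.10, adjusted p = 2.77e-07) and Klrk1 by +0.77 (SE 0.11, adjusted p = 1.66e-05). Klrc1 was at 24.97 to 55.2 CPM in NK-like and 17.3 to 123 CPM in T-like sums, and its difference of -0.29 (SE 0.23, adjusted p = 0.364) was within the spread. Among the remaining members, Klrg1 differed by +2.61 (SE 0.29, adjusted p = 9.42e-07), Klrb1c by +2.02 (SE 0.19, adjusted p = 1.04e-07) and Klre1 by +1.48 (SE 0.11, adjusted p = 3.93e-09). The T-like class held NK markers at 2412 to 5216 CPM in all, and monocyte/macrophage markers at 3499 to 12468 CPM, against 2437 to 5192 CPM of the latter in NK-like sums. The part of these cells or of free RNA in the T-like levels was not tested.

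Of the related genes, 9 other killer lectin-like receptor genes had enough counts in this comparison, and 6 were called higher and 2 lower in NK-like cells. Those higher included Klri2, the partner of Klre1, with a median of 248.8 CPM in NK-like and 27.4 CPM in T-like sums, and Klrb1b, an inhibitory relative of Klrb1c, with 642 against 95.2 CPM. Those lower were Klra6 (6.3 against 44.2 CPM) and Klra2 (5.4 against 31.4 CPM). Klra1 did not pass the test and was at a median of 81.2 CPM in NK-like and 107 CPM in T-like sums. Of 21 adaptor and signalling genes, 6 were called higher and 7 lower. Over all 8459 genes, 14.4% were called higher and 33% in either direction. Tyrobp was at a median of 978 CPM in NK-like and 358 CPM in T-like sums, and Hcst at 40.5 and 37.9 CPM.

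Klrk1 and Klrd1 were also found in DC-like cells. Klrk1 stood in DC-like sums at 311, 224 and 275 CPM after free R848, 119 and 182 CPM after medium BPD, and 240, 175 and 253 CPM after saline. In monocyte/macrophage-like sums of the same tumors it was at 13.2 to 64.0 CPM. The DC-like value was higher in 8 of 8 tumors, by a mean of 2.78 on the scale of log2(CPM + 1) (SD 0.53). Klrd1 was at 33.4, 60.1 and 80.5 CPM after free R848, 28.01 and 30.8 CPM after medium BPD, and 148, 43.8 and 52.7 CPM after saline, against 0 to 4.5 CPM in monocyte/macrophage-like sums, a mean difference of 4.51 (SD 0.93, 8 of 8 tumors). Both differences had p = 0.00781 in a two-sided exact sign-flip permutation test over tumors, the smallest that 8 tumors can give, and an adjusted p = 0.0391 over the 20 such tests made. These comparisons were chosen after the levels had been seen. With the 307 cells of a poor-quality cluster kept, which were otherwise left out, the adjusted p was 0.0521 for Klrk1 and 0.0625 for Klrd1, which was then higher in 7 of 8 tumors. That setting also changed the DC-like class itself. A cluster of 343 cells led by Kmo and H2-DMb2 took no class name there, and only the cluster with Fscn1 and Ccl22 (360 cells) was DC-like. In the DC-like sums the other 8 members were at no more than 40.1 CPM, Ncr1 at 0 to 8.0 CPM and the 3 Cd3 genes together at 7.3 to 89.4 CPM. NK markers other than Ccl5 summed there to 353 and 780 CPM after medium BPD, 49.98 to 186 CPM after free R848 and 51.1 to 77.3 CPM after saline. Among them Gzma, which encodes granzyme A, was at 132 and 466 CPM after medium BPD and 1.2 to 60.1 CPM in the other tumors, and Prf1, which encodes perforin, at 50.7 and 108 CPM against 3.6 to 25.9 CPM. Their part in the Klrk1 and Klrd1 levels was not tested.

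In the DC-like class, 2 members had enough counts for the treatment tests. Klrd1 was called lower after medium BPD than after saline, by 1.73 on the log2 scale (edgeR SE 0.47, adjusted p = 0.023), where 13.5% of 5963 genes were called. It was not called in the other contrasts, where 0.822% (medium BPD against free R848) and 1.43% (free R848 against saline) of genes were, and Klrk1 was called in none. The call rested on several libraries: it was lost without either BPD tumor (adjusted p = 0.203 and 0.0747) and without saline replicate 1 (adjusted p = 0.393), with the replicate block (adjusted p = 0.0619) and with DESeq2 (adjusted p = 0.0639). The makeup of the class moved with it. The class joined a cluster with Flt3 and H2-DMb2, which held 70.4 to 79.3% of DC-like cells after saline, 19.6 to 47.3% after free R848 and 11.4 and 14.5% after medium BPD, and a cluster with Fscn1 and Ccl22, genes of migratory DCs. Ccr7 was among the leading genes of both. Klrd1 was at a median of 80.5 CPM (29.2 to 175) in the first and 30.05 CPM (13.5 to 58.0) in the second, whereas Klrk1 spanned 140 to 299 and 110 to 341 CPM. Over tumors with at least 10 cells of the cluster, Klrd1 in the first was at 29.2 CPM after medium BPD, 96.2 and 122 CPM after free R848, and 175, 64.7 and 55.4 CPM after saline. In the second it was at 27.8 and 23.7 CPM, 13.5 to 45.8 CPM, and 58.0 and 46.4 CPM in the same order. The values of the second cluster rest on 3 to 18 UMIs each. NK markers other than Ccl5 summed to 51.1 to 77.3 CPM in the DC-like sums after saline and to 353 and 780 CPM after medium BPD. The part of either in the Klrd1 difference was not tested. Beside it, H2-K1 (+0.82, SE 0.20, adjusted p = 0.0115) and H2-D1 (+0.63, SE 0.19, adjusted p = 0.0411), which encode Ly49 ligands, were higher in DC-like cells after medium BPD than after saline. Either call was lost without either BPD tumor or without saline replicate 1 (adjusted p from 0.0564 to 0.226), and that of H2-D1 also without free R848 replicate 2 (0.0667) or saline replicate 3 (0.0762) and with the replicate block (0.104).

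Klra4, which encodes an activating receptor, was counted in the tumor cells themselves. In MC38-like sums it was at 37.6, 27.3 and 46.4 CPM after free R848, 35.2 and 37.6 CPM after medium BPD, and 29.1, 31.5 and 27.9 CPM after saline. In monocyte/macrophage-like sums of the same tumors it was at 0 to 2.3 CPM, lower in 8 of 8 tumors by a mean of 4.29 (SD 0.67) on the log2(CPM + 1) scale (exact sign-flip permutation p = 0.00781, adjusted p = 0.0391, and 0.0521 with the poor-quality cluster kept). The other Ly49 members were nearly absent from MC38-like sums, with at most 0.41 CPM for Klra3, 1.23 CPM for Klra7 and 5.36 CPM for Klra8. Klrk1 was lower in MC38-like than in monocyte/macrophage-like sums in 8 of 8 tumors, at 0 to 6.5 CPM, a mean difference of -3.32 (SD 1.07, exact sign-flip permutation p = 0.00781, adjusted p = 0.0391, and 0.0521 with that cluster kept). The 804 Klra4 UMIs were spread over 488 of 1641 MC38-like cells (29.7% at full depth, and 18.5 to 41.2% per tumor), no cell held more than 7, and the 10 cells with the most held 57. After thinning to 1000 UMIs the share in the median tumor was 3.51% (1.83 to 7.69%), against 0 to 0.317% of monocyte/macrophage-like cells. Cells with Klra4 were deeper, with a median of 17005.5 against 10093 UMIs. They carried the MC38 markers Rhox5 in 98.8% (97.0% of cells without Klra4) and Mtap in 98.8% (93.5%). Ncr1 was found in 1.02% of cells with Klra4 and 0.347% of those without, Klra8 in 1.23% and 0.520%, and the doublet call in 1.02% and 1.39%. The reads behind these UMIs were not analysed here, so a Klra4 transcript and another sequence assigned to that symbol cannot be told apart.

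Whether the treatments changed the receptors of NK-like cells was asked in 3 contrasts that share their tumors pairwise. None of the 10 members was called in any of them. In medium BPD against free R848, 0.259% of 8508 genes were called, with 745 genes and 2 members at an unadjusted p under 0.05. In medium BPD against saline, 0.846% of genes were called, with 866 genes and 2 members at an unadjusted p under 0.05. In free R848 against saline, 0% of genes were called, with 379 genes and 3 members at an unadjusted p under 0.05. The medians of the members' log2 differences were -0.16, 0.03 and 0.16, beside -0.00, -0.01 and 0.00 over all genes. NK markers summed to 6646 to 8479 CPM after saline, 9045 to 10313 CPM after free R848 and 13249 to 17993 CPM after medium BPD, and their part in the levels below was not tested.

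Klra8 came closest to a call. It stood at 282, 236 and 291 CPM after free R848, 144 and 161 CPM after medium BPD, and 177, 154 and 195 CPM after saline. The free R848 tumors were all above the other 5, and the medium BPD and saline tumors overlapped. Its difference between medium BPD and free R848 was -0.84 on the log2 scale (edgeR SE 0.18), with an adjusted p = 0.0622, and it passed the threshold in 7 alternatives, among them DESeq2, no filter on low counts, and leaving out saline replicate 2 (adjusted p = 0.0494) or 3 (0.0422). Klra4, the other activating Ly49 gene, stood at 201, 178 and 160 CPM after free R848, 159 and 89.1 CPM after medium BPD, and 99.3, 115 and 137 CPM after saline. Its free R848 values likewise lay above every other tumor, by a margin of under 1 CPM over the highest BPD value. The inhibitory Klra7 was at 372, 368 and 356 CPM, 443 and 318 CPM, and 303, 291 and 386 CPM in the same order, and all 3 groups overlapped.

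Klrb1c stood at 258, 265 and 260 CPM after free R848, 355 and 348 CPM after medium BPD, and 179, 294 and 228 CPM after saline. Both medium BPD tumors were above all other tumors, but the smallest adjusted p, against saline, was 0.209. Klre1 was at 255, 304 and 291 CPM after free R848 and 222, 214 and 242 CPM after saline, again without overlap and without a call. Its medium BPD values were 252 and 238 CPM, the latter within the saline range. For Klrd1 the medium BPD tumors, at 355 and 263 CPM, lay below the saline tumors at 392, 440 and 477 CPM, and the free R848 tumors, at 433, 398 and 329 CPM, spanned both. Klrk1 was at 339, 343 and 343 CPM after free R848, 285 and 475 CPM after medium BPD and 307, 338 and 293 CPM after saline, so that the 2 medium BPD tumors bracketed all others. Klrg1 ranged from 161 to 381 CPM within the saline tumors alone, wider than in either treated group. Klrc1 and Klra3 were at 24.97 to 55.2 and 25.5 to 83.7 CPM over all tumors, with overlapping groups.

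**Figure D2:**
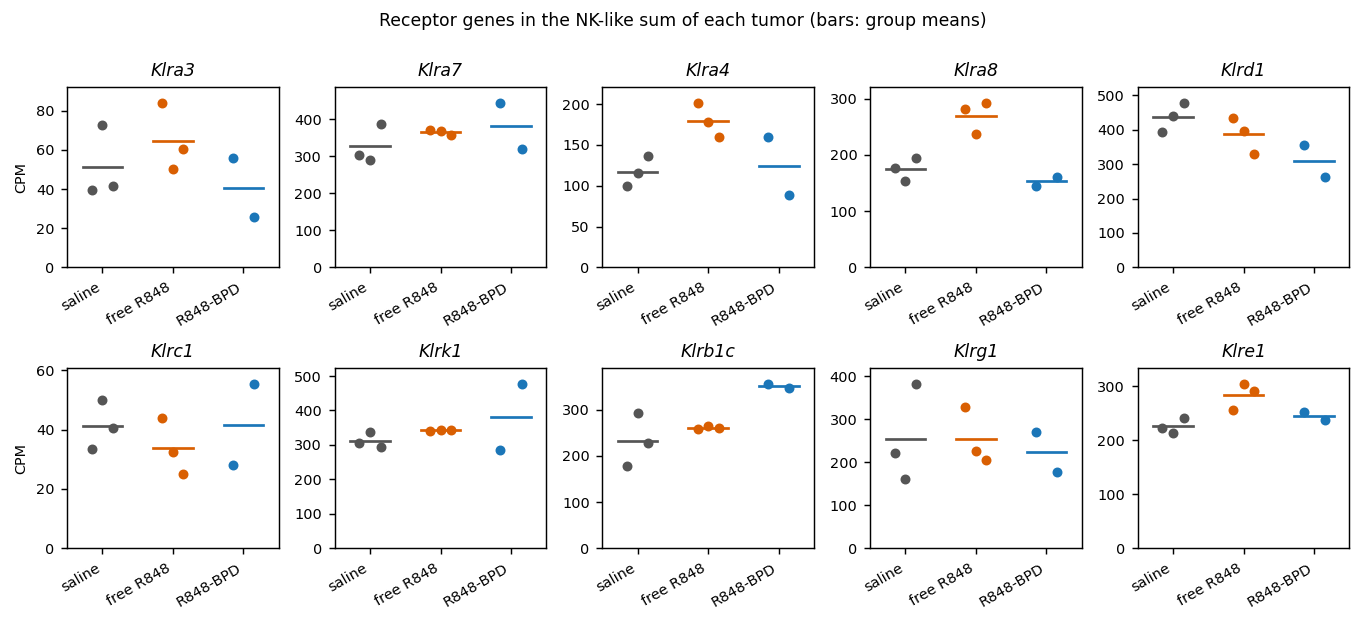
Level of each receptor gene (CPM) in the NK-like sum of each tumor by treatment, with 1 point per tumor and a bar at the group mean. Klra8 is at 236 to 291 CPM in the free R848 tumors and at 144 to 195 CPM in the others, and Klrb1c is highest in both medium BPD tumors.

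Other receptor-related genes did pass the test in NK-like cells. Ncr1, which encodes the activating receptor NKp46, stood at 144 and 164 CPM after medium BPD, against 255, 268 and 331 CPM after free R848 and 272, 275 and 299 CPM after saline. It was lower after medium BPD than after free R848 by 0.86 (edgeR SE 0.17, adjusted p = 0.0486) and than after saline by 0.84 (SE 0.17, adjusted p = 0.0227) on the log2 scale. Ptpn6, which encodes SHP-1, a phosphatase recruited by inhibitory receptors, was at 132 and 262 CPM after medium BPD and 428, 497 and 497 CPM after saline, a difference of -1.14 (SE 0.20, adjusted p = 0.00723). Cdh1, which encodes the KLRG1 ligand E-cadherin, was counted within NK-like cells at 29.7 and 48.3 CPM after medium BPD and 129, 141 and 220 CPM after saline (-1.88, SE 0.29, adjusted p = 0.0023). Of the transcription factors of NK maturation, Tcf7 was lower after medium BPD than after saline (-1.30, SE 0.25, adjusted p = 0.0146) and Id2 higher (+0.76, SE 0.17, adjusted p = 0.0317). In medium BPD against saline 0.846% of all 8508 genes were called. Among lists of 9 other killer lectin-like receptor, 20 adaptor, 7 ligand, 15 other NK receptor and 15 maturation genes tested in that contrast, these 5 were the genes called. Other markers moved with them in the NK-like sums: monocyte/macrophage markers were at 2437 to 3554 CPM after medium BPD and 3623 to 4816 CPM after saline, T cell markers at 956 to 968 and 641 to 825 CPM, and NK markers at 13249 to 17993 and 6646 to 8479 CPM, each without overlap, and their part in these differences was not tested. With 2 medium BPD tumors, each call rested on few libraries. That of Ncr1 against saline was lost without either BPD tumor (adjusted p = 0.143 and 0.131) or without saline replicate 1 (0.075), and that of Id2 without either BPD tumor (0.0792 and 0.261) or without saline replicate 1 (0.106) or 2 (0.0946). Those of Cdh1 (0.0718) and Tcf7 (0.36) were lost without BPD replicate 1 and that of Ptpn6 (0.0567) without BPD replicate 2. Ncr1 alone was called in medium BPD against free R848, a call that was lost without any 1 of those 5 tumors (adjusted p from 0.0842 to 0.29) and with the replicate block (0.0664), and none in free R848 against saline.

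In T-like cells 8 members had enough counts and none was called. The share of all 7110 genes called was 0.0422% in medium BPD against free R848, 0.0141% in medium BPD against saline and 0% in free R848 against saline, where 430 genes but no member had an unadjusted p under 0.05. The smallest adjusted p of a member was 0.760, 0.909 and 0.837. Levels varied widely within treatments: Klra7 stood at 34.9, 271 and 117 CPM after free R848, 300 and 227 CPM after medium BPD, and 184, 105 and 260 CPM after saline, and Klrc1 at 123, 28.3 and 45.3 CPM after free R848. The difference between the classes in their response was tested as a class-by-treatment term over 8459 genes. It was called for no member and for 0% of genes in each contrast, with 379, 438 and 321 genes and 2, 0 and 0 members at an unadjusted p under 0.05. With 2 or 3 tumors per group, changes of the size of the spread between tumors may have been missed.

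Within NK-like cells, the receptors differed with the granzymes. Granzymes D to G (Gzmd, Gzme, Gzmf and Gzmg) are proteases of the cytotoxic granule, and 651 NK-like cells had a UMI of at least 1 of them after thinning to 1000 UMIs while 333 did not. Comparing both kinds of cell within each of the 8 tumors, 1 member was higher in granzyme-positive cells and 4 were lower, where 4.14% of 6887 genes were called higher, 4.43% lower and 8.57% in all. The median difference was -0.26 over the members and 0.00 over all genes. Klrg1 was the one that was higher, at 158 to 453 CPM (median 310) in positive and 14.2 to 214 CPM (median 80.0) in negative cells, a difference of +2.09 (SE 0.21, adjusted p = 1.38e-07). It was higher in 7 of 8 tumors, the exception being medium BPD replicate 2 with 158 against 214 CPM. Klra4 was lower, at 39.6 to 173 CPM (median 132) against 129 to 276 CPM (median 184), by 0.63 (SE 0.13, adjusted p = 0.00264) and in 8 of 8 tumors. These calls held for Klrg1 and Klra4 in all 18 alternatives.

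The other 3 calls were smaller or less stable. Klrc1 differed by -0.75 (SE 0.21, adjusted p = 0.0236, lower in 6 of 8 tumors), Klrb1c by -0.32 (SE 0.10, adjusted p = 0.0408, 8 of 8) and Klrk1 by -0.32 (SE 0.09, adjusted p = 0.0224, 7 of 8). They were lost in 7, 8 and 6 alternatives. Leaving out free R848 replicate 1 ended all 3 calls (adjusted p = 0.0597, 0.159 and 0.0569). Leaving out saline replicate 1 ended those of Klrc1 (0.0989) and Klrk1 (0.0592), and leaving out saline replicate 2 (0.11 and 0.0664) or free R848 replicate 2 (0.0945 and 0.0646) those of Klrb1c and Klrk1. Klrc1 was also lost without saline replicate 3 (0.0751) or BPD replicate 1 (0.056), and Klrb1c without free R848 replicate 3 (0.0665). Without free R848 replicate 1 the number of members called fell to 2, and without free R848 replicate 2 or saline replicate 1 to 3. Klra7 (adjusted p = 0.158), Klra8 (0.164, and 0.0147 without saline replicate 2), Klrd1 (0.296), Klre1 (0.56) and Klra3 (0.935) did not pass. Of the other lists, 3 genes were higher and 5 lower of 14 other NK receptor genes tested, 1 and 4 of 13 maturation genes, 3 and 3 of 20 adaptor genes, and 1 and 1 of 7 other killer lectin-like receptor genes. Havcr2, which encodes the checkpoint receptor TIM-3, was higher in granzyme-positive cells by 2.14 (SE 0.21, adjusted p = 6.23e-08). Itga1, the integrin CD49a of tissue-resident and ILC1-like cells, was higher by 1.60 (SE 0.15, adjusted p = 2.45e-08) and Cdh1 by 1.37 (SE 0.18, adjusted p = 8.24e-06). Of the 6 ligand genes tested it was the 1 called higher, and 3 were called lower: H2-K1 by 0.46 (SE 0.05, adjusted p = 6.86e-07), B2m by 0.32 (SE 0.05, adjusted p = 0.000141) and H2-D1 by 0.24 (SE 0.05, adjusted p = 0.00345). Tcf7 was lower by 1.31 (SE 0.19, adjusted p = 2.18e-05) and Il18r1, the receptor for IL-18, by 1.02 (SE 0.15, adjusted p = 3.25e-05). Positive cells had median UMIs per cell of 3626.5 to 10999 per tumor and negative cells 2774 to 6077. Monocyte/macrophage markers summed to 3195 to 6299 CPM in positive and 1070 to 3493 CPM in negative cells, and the part of either in these differences was not tested.

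**Figure D3:**
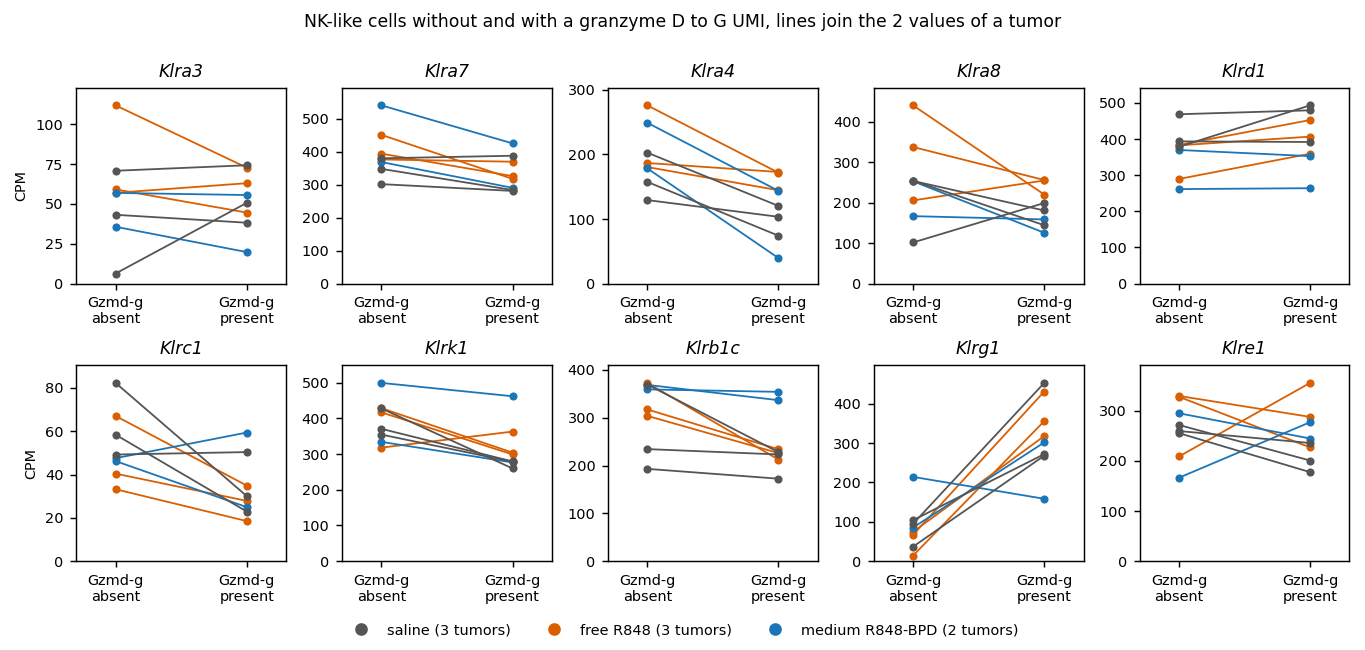
Level of each receptor gene (CPM) in NK-like cells without and with a granzyme D to G UMI, with a line joining the values of each tumor. For Klrg1 the line rises in 7 of 8 tumors, and for Klra4 and Klrb1c it falls in 8 of 8.

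In T-like cells the question was whether the receptors sat on CD8 T cells. 289 cells had a Cd8a or Cd8b1 UMI and 347 did not, and 7 members had enough counts. None was higher in the CD8 cells and 2 were lower, where 0.604% of 5627 genes were called lower and 0.995% in all. Klrb1c was at 0 to 112 CPM (median 16.8) in CD8 cells and 60.6 to 197 CPM (median 118) in the others, a difference of -2.33 (edgeR SE 0.35, adjusted p = 0.00149). Klrg1 was at 0 to 64.3 CPM against 23.4 to 165 CPM, a difference of -2.58 (SE 0.45, adjusted p = 0.00547). Both were lower in 8 of 8 tumors. Klrd1 was at a median of 215 CPM in CD8 cells and 137 CPM in the others and higher in 7 of 8 tumors, without passing the test (+0.44, adjusted p = 0.304). Klrk1 was at medians of 191 and 185 CPM (difference 0.01, adjusted p = 1).

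Genes of the other lists differed in both directions. Ncr1 was lower in the CD8 cells by 4.48 on the log2 scale (edgeR SE 0.58, adjusted p = 0.000266), Klrb1b by 2.73 (SE 0.38, adjusted p = 0.000569), Fcer1g by 1.06 (SE 0.20, adjusted p = 0.012) and Tyrobp by 0.98 (SE 0.20, adjusted p = 0.0174). Lat, an adaptor of T cell receptor signaling, was higher in the CD8 cells by 0.83 (SE 0.16, adjusted p = 0.0162) and Plcg1, a phospholipase in the same pathway, by 1.1001 (SE 0.22, adjusted p = 0.0174). Klri2 (-2.05, adjusted p = 0.04999), Fcgr3 (-0.97, adjusted p = 0.0258) and Rora (-0.84, adjusted p = 0.0345) were the other genes called. The calls of Lat (0.0557) and Plcg1 (0.0524) were lost without free R848 replicate 1, and that of Plcg1 also without BPD replicate 1 (0.0617). Fcgr3 was lost without any 1 of the free R848 or saline tumors (0.0589 to 0.0765), Rora without any 1 tumor but saline replicate 2 (0.0575 to 0.0958), and Klri2 without any 1 tumor but free R848 replicate 3 and saline replicate 2 (0.0707 to 0.175). Klri2 was also lost with doublets left out (0.111) and with clusters from all variable genes (0.124). With the poor-quality cluster kept, Klri2 (0.0531) and Rora (0.0935) were lost too. When T-like cells were required to hold a Cd3 UMI and no Ncr1 UMI, Klrg1 was still called but Klrb1c (adjusted p = 0.0939), Klrb1b (-1.60, adjusted p = 0.239) Fcer1g (-0.51), Fcgr3 (-0.36), Lat (+0.34) and Plcg1 (+0.68) were not, and Tyrobp changed sign (+0.16). The summed NK markers were at 1744 to 5608 CPM in CD8 cells (median 2916) and 1843 to 5083 CPM in the others (median 2913). This sum of 10 genes holds Ccl5, Gzma and Prf1 beside Ncr1, so equal sums do not mean equal numbers of NK cells. Within it Ncr1 was lower in the CD8 cells, as given above. The part of NK cells in the Klrb1c and Klrg1 differences was not tested. Monocyte/macrophage markers, whose cells also express Fcer1g, Tyrobp and Fcgr3, summed to 2630 to 10172 CPM (median 5056) in CD8 cells and 3887 to 15952 CPM (median 7566) in the others, and their part in these differences was not tested. Klra4 was almost confined to 1 of the 3 T-like clusters, whose 145 cells held 48 of the 53 Klra4 UMIs of the class, and was too low for the test. The class of that cluster was the least certain of the 3. Its mean marker level relative to the highest cluster was 0.320 for T cells and 0.298 for the next class. The other T-like clusters had 0.830 against 0.573 and 0.996 against 0.351. Klra7 was counted in each of the 3 T-like clusters, with medians of 250, 265 and 99.2 CPM over tumors.

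**Figure D4:**
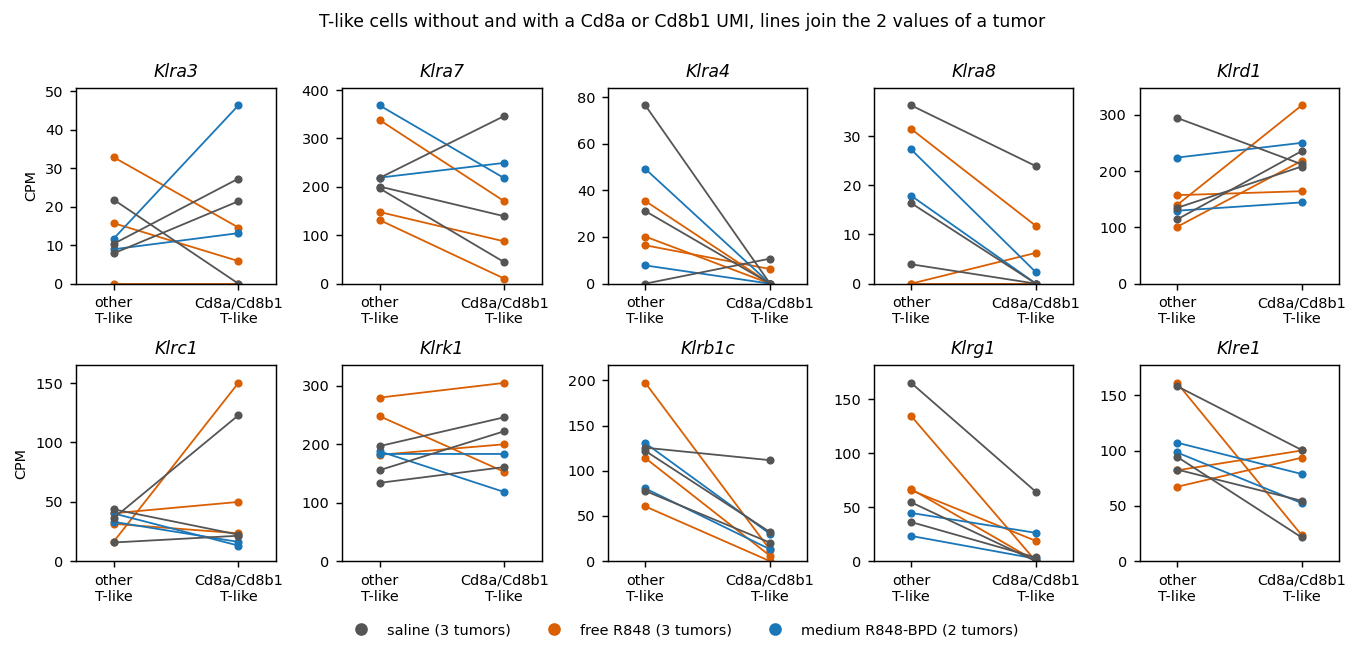
Level of each receptor gene (CPM) in T-like cells without and with a Cd8a or Cd8b1 UMI, with a line joining the values of each tumor. Klrb1c and Klrg1 fall in 8 of 8 tumors, whereas the lines for Klrk1 and Klrc1 run both ways.

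Which receptors shared a cell was described for the 45 pairs of members in NK-like cells, as the ratio of observed cells with both to those expected if detection were independent within each tumor and each depth group (cells above and below the tumor's median UMIs). The activating Ly49 genes went together: 179 cells had both Klra4 and Klra8, a ratio of 1.43, above 1 in 8 of 8 tumors. A Klra8 UMI was found in 59.1% (43.4 to 66.7% over tumors) of cells with Klra4 and 29.1% (19.7 to 45.3%) of cells without. Klra8 with Klrg1 (1.19) and Klra3 with Klrg1 (1.23) were also above 1 in 8 of 8 tumors, and Klra3 with Klra8 reached 1.36 but was above 1 in only 5.

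The activating Ly49 genes and Klrc1, which encodes NKG2A, shared cells less often than expected. 33 cells had both Klra4 and Klrc1, against 58.6 expected, a ratio of 0.56, and 40 had both Klra8 and Klrc1, against 64.1 expected, a ratio of 0.62. At full depth both ratios were below 1 in 8 of 8 tumors, as was that of Klrc1 with Klrg1 (0.73). A Klrc1 UMI was found in 8.92% (4.55 to 23.1%) of cells with Klra4 and 21.0% (17.0 to 31.0%) of those without. The inhibitory pair Klra3 and Klra7 stood at 0.78, below 1 in 7 of 8 tumors. Klrd1 and Klrc1, whose proteins form 1 receptor, stood at 1.03, near independence. After thinning to 1000 UMIs, with the expectation within tumors only, 3 cells had both Klra4 and Klrc1 (ratio 0.61). Another 4 had both Klra8 and Klrc1 (0.58). Those pairs were above expected in 3 and 1 of 8 tumors, Klrc1 with Klrg1 (0.82) in 2, and Klra4 with Klra8 (1.85, 37 cells) in 7. These ratios come from cells that share libraries, are limited by the detection of low transcripts, and carry no test.

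**Figure D5:**
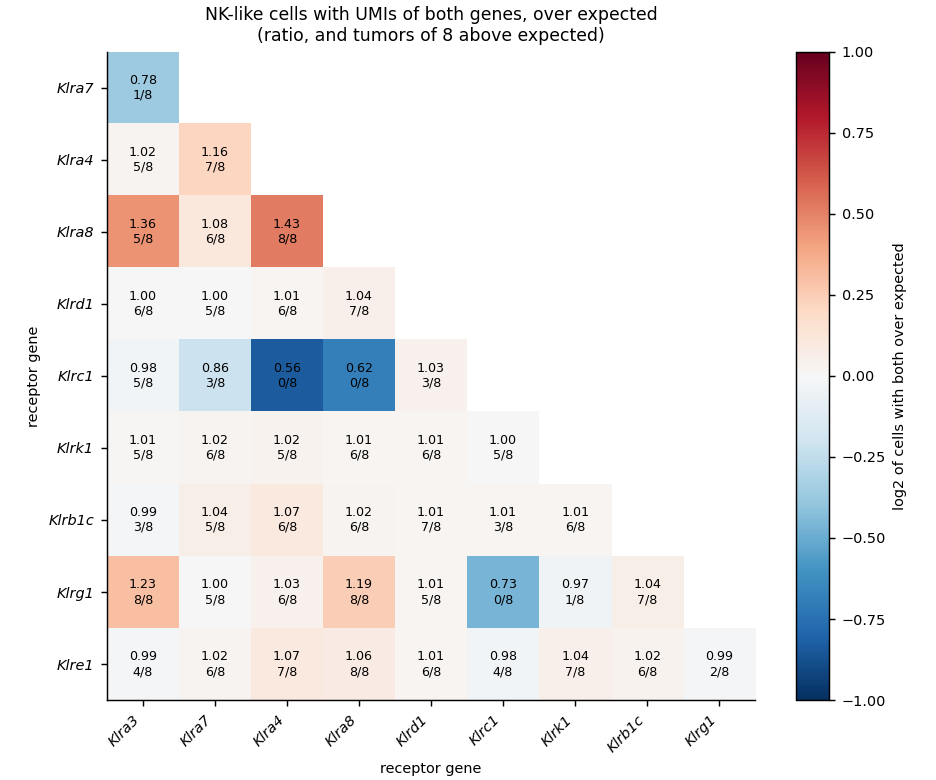
Observed over expected number of NK-like cells with UMIs of both genes, for each of the 45 pairs of the 10 receptor genes, expected within tumor and depth group. Klra4 with Klra8 has the highest ratio at 1.43 and Klra4 with Klrc1 the lowest at 0.56.

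The ligands of these receptors were counted in the cells around. H2-K1, a Ly49 ligand, was at 2196 to 3594 CPM in MC38-like cells with a median of 2758 CPM, against a median of 4716 CPM in monocyte/macrophage-like cells. H2-T23, which encodes Qa-1, was at 2.6 to 15.6 CPM in MC38-like cells, 111 to 259 CPM in monocyte/macrophage-like and 186 to 348 CPM in DC-like cells, without overlap between tumor cells and the others. Among the NKG2D ligands, Raet1d was low, at 6.1 to 10.3 CPM in MC38-like and 2.6 to 7.1 CPM in monocyte/macrophage-like cells. So was Ulbp1, at 5.0 to 9.3 and 2.3 to 7.8 CPM. The level of Raet1e, also on the ligand list, is not given here. H60b and H60c had no UMI in any of the 1641 MC38-like cells. Over the 3 treatment contrasts none of the ligand genes tested was called in MC38-like cells, where 0.306%, 0.787% and 0% of genes were, or in monocyte/macrophage-like cells, where 1.64%, 7.37% and 0.0189% were. With DESeq2, Cdh1, H2-D1 and H2-K1 were called once each.

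The genes most like the receptors were sought over the 40 sums of 5 classes in 8 tumors, by Pearson correlation of log2 CPM with the summed members. Of 9068 genes ranked, those closest included Sema6d (r = 0.974), Car2 (0.969), Atp1b1 (0.966), Tbc1d10c (0.958), Tbx21 (0.957), Thy1 (0.949), Ppp1r16b (0.949), Sept1 (0.949) and Ptprcap (0.946). Tbx21 encodes T-bet, a transcription factor of NK cells. Over the 8 NK-like sums alone r was between -0.27 and 0.50. The correlations share classes and libraries and are a description with no test.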

How the data were processed

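Seq-Well counts of 8 MC38 tumors were analysed. The authors aligned reads to mm10, with bcl2fastq also named in the submitters' processing notes, and deposited raw UMI counts per gene and barcode, with no normalization. Which aligner, annotation and strand setting were used is not given in the sources used here. The study's limits (over 400 and under 10000 genes, under 50000 UMIs, at most 15% mitochondrial UMIs) were applied, and Scrublet (Scanpy 1.11.5, expected rate 0.05) scored doublets, which were kept. Cells were clustered in Seurat 5.3.0 (R 4.3.3) with the study's numbers of components and resolution (1.3), and 307 cells of a poor-quality cluster were left out. Clusters were rebuilt and need not be the study's subsets.

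Counts were summed per tumor and class (at least 10 cells) and tested with edgeR 4.0.16 (TMM, filterByExpr, quasi-likelihood F test, Benjamini-Hochberg adjustment, call at 0.05), with 1 fit over all 8 tumors for treatments and the tumor as a block between cell groups. SE is the log2 difference over the square root of F. Each tumor came from 1 mouse. Shares of cells are at full depth unless given as thinned to 1000 UMIs. The members, gene lists and tests were chosen with earlier results of these data known. Genes named are the members, up to 5 called genes per list and comparison with the smallest p, and the 10 most correlated genes with a mean CPM of at least 10, of which 1 is not reported here. Other genes were named for their level or role after their values were seen. The comparisons of DC-like and MC38-like with monocyte/macrophage-like cells, and those within the DC-like class, were also added after seeing the data. Depth intervals cover counting error only. Alternatives included DESeq2 1.42.0, RLE size factors, no filter, a stricter gate, other clusterings and each tumor left out. Same-numbered tumors did not deviate together (r from -0.21 to 0.09 in NK-like and -0.07 to 0.23 in T-like sums), so the numbers were not taken to pair them. Scripts were tested on simulated data. Python 3.11.15 and scipy 1.17.1 were also used.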

Additional observations from a re-analysis of the deposited data

How the results depend on the processing

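Alternatives were the settings named with the methods. The number of members called in NK-like cells was 0 in each contrast as reported. In medium BPD against free R848 it became 1 (Klra8) with DESeq2, with no filter, with only the 2 treatments compared, with the poor-quality cluster kept and with the stricter gate, at log2 differences of -0.83 to -0.96, and 0 to 1 with each tumor left out (Klra8 without saline replicate 2 or 3). In medium BPD against saline it was 0 to 1 with each tumor left out (Klrb1c, +0.80, without saline replicate 2). With no filter, T-like cells had 2 members called in medium BPD against free R848 (Klra7 and Klrc1) and 1 in medium BPD against saline (Klrg1), and the class-by-treatment term of medium BPD against free R848 had 1 (Klra7). The 5 members called in the granzyme comparison became 2 with DESeq2, 3 with no filter and 2 to 5 with each tumor left out. The 2 called in the CD8 comparison became 0 with DESeq2, which gave an adjusted p for 4 members and not for Klrb1c or Klrg1, 4 with no filter and 1 with the stricter gate. The 0 ligand genes became 3 with DESeq2, 4 with no filter and 0 to 1 with each tumor left out. The sign changed for Tyrobp between CD8 and other T-like cells with the stricter gate (0.16) and for Klrb1b in DC-like cells, medium BPD against saline, with the poor-quality cluster kept (0.14). The 4 differences from monocyte/macrophage-like cells had an adjusted p of 0.0521 to 0.0625 with that cluster kept. H2-K1 (0.44) and H2-D1 (0.579) in DC-like cells were then not called. In that setting a cluster of 343 cells led by Kmo and H2-DMb2 was not in the DC-like class. The part of this change in the DC-like shifts was not tested. The MC38-like differences kept their direction there, at 4.04 for Klra4 and -3.32 for Klrk1 (exact sign-flip permutation test, adjusted p = 0.0521 each). That adjusted p also depends on the DC-like tests, which were adjusted together with these. Ncr1 against free R848 was also lost with doublets left out (0.0526), all variable genes (0.0602) or a resolution of 0.8 (0.0525), and Id2 with only the 2 treatments compared (0.0631). The replicate block left the counts of members called in NK-like and T-like cells at 0, and ended 5 calls of single genes between treatments: in DC-like cells those of Klrd1 (adjusted p = 0.0619), Klrb1b (0.0504, medium BPD against saline), Klri2 (0.0961) and H2-D1 (0.104), and in NK-like cells that of Ncr1 against free R848 (0.0664). Over all alternatives, of 234 recomputed counts, 7 moved by more than 1.5 times with a tumor left out and 15 under other settings. Of 869 recomputed fold changes, 71 lost the call with a tumor left out and 39 under other settings, and 2 changed sign. Of 40 recomputed shares of cells with a UMI, 36 moved by more than the spread between tumors when cells were thinned to 2000 UMIs or not thinned. The cause of these shifts was not tested. Depth limits the rarer members: Klrc1 and Klra3 rest on 259 and 399 UMIs in NK-like cells.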

Other observations

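Other killer lectin-like receptor genes were also counted outside NK-like cells. Klra2 was at 103 to 217 CPM in monocyte/macrophage-like sums, with a UMI in 13.6% of cells of the median tumor after thinning to 1000 UMIs, and in 4 of 984 NK-like cells. Among neutrophil-like cells the share was 20.8%. Klrb1b was at 89.0 to 475 CPM in DC-like sums and 458 to 897 CPM in NK-like sums, and was lower in DC-like cells after medium BPD than after saline by 1.19 (edgeR SE 0.31, adjusted p = 0.0195) on the log2 scale, a call that was lost without either BPD tumor (adjusted p = 0.122 and 0.106), without saline replicate 3 (0.0592) and with the replicate block (0.0504). With the poor-quality cluster kept the sign turned (0.14, adjusted p = 0.912). In that setting a cluster of 343 cells led by Kmo and H2-DMb2 took no class name and was not in the DC-like class. Klrb1b was lower after free R848 than after saline too, by 1.52 (SE 0.29, adjusted p = 0.0327). This call was lost without free R848 replicate 1 or 2 (0.0557 and 0.0827), without saline replicate 1 or 3 (0.175 and 0.0825) and with the poor-quality cluster kept (0.472). Klri2 in DC-like cells was lower after medium BPD than after saline by 1.17 (SE 0.36, adjusted p = 0.0401), lost in 8 alternatives, among them the replicate block (0.0961) and without BPD replicate 1 (0.482), saline replicate 1 (0.123), saline replicate 3 (0.114) or free R848 replicate 2 (0.0503). Klra17 was at 5.5 to 18.5 CPM in DC-like sums and had no UMI in NK-like cells. Cdh1 fell in DC-like cells too, by 2.84 (SE 0.49, adjusted p = 0.00179) between saline and medium BPD. The makeup of the DC-like class moved with all of these differences: the cluster with Flt3 and H2-DMb2 held 70.4 to 79.3% of its cells after saline, 19.6 to 47.3% after free R848 and 11.4 and 14.5% after medium BPD. NK markers other than Ccl5 summed to 51.1 to 77.3 CPM after saline, 49.98 to 186 CPM after free R848 and 353 and 780 CPM after medium BPD. Klrb1b was at 199 to 701 CPM in that cluster and 65.1 to 232 CPM in the cluster with Fscn1 and Ccl22, over the tumors with at least 10 of its cells. Within the latter it was at 189 and 125 CPM after medium BPD, 65.1 to 81.4 CPM after free R848 and 84.4 and 232 CPM in the 2 saline tumors with a value, so the medium BPD and saline values overlapped there. The part of makeup or NK transcripts in the Klrb1b, Klri2 and Cdh1 differences was not tested.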
